A study of Mus musculus with 60 samples.

Results

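The 10 genes described here serve the uptake and digestion of particles by macrophages, and they were followed in lungs of mice that had inhaled iron oxide nanoparticles. They are the surface receptors Marco, Msr1 and Mrc1, the endosomal and secreted macrophage products Cd68 and Lyz2, the lysosomal glycoprotein Gpnmb, and the proteases Ctsb, Ctsd, Ctsk and Ctsl. A probe set, which is the group of array probes that reports on 1 transcript, belonged to a member if the annotation of the array gave that gene as its only symbol. By this rule 20 of 34945 probe sets with a single symbol were members, and they stood for 10 of the 18193 genes measured. Where a gene had several probe sets, the one with the highest mean over the 60 arrays was used.

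Scavenger receptors are cell surface proteins that bind negatively charged ligands such as modified lipoproteins, bacterial wall and uncoated particles, and they let macrophages take these up without antibody. The engulfed material passes to lysosomes, where acid proteases called cathepsins digest protein. In the lung, resident alveolar macrophages take up particles that reach the air spaces, and monocytes can enter from blood and become macrophages during inflammation.

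All mice were labelled as male Balb/c animals, although a sex-linked signal of each of 2 arrays went against that label. Mice of both arms were first accustomed to the restraint tubes. The SPIO group then inhaled an aerosol of superparamagnetic iron oxide nanoparticles for 4 h, nose only. The sham controls breathed the same humidified helium and oxygen mixture with filtered air and without particles. Lungs of 5 mice per group were taken 0, 6, 24, 48, 96 or 168 h after the exposure, which gave 12 groups of 5 arrays, with 1 array per mouse. Both 96 h groups had also been placed in a plethysmograph, and both 168 h groups had lived in metabolism cages on a liquid diet, so that time after exposure and housing cannot be told apart. RNA came from whole lobe tissue, in which fewer cells of a type and less RNA per cell cannot be told apart.

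Values are log2 signals that the authors had normalised by RMA (robust multi-array average), and a difference of 1 on this scale is a doubling of signal. Array medians ran from 5.54 to 5.64, and every pair of arrays correlated at 0.973 or more. Markers of lung cells were high on every array, with Sftpc at 14.85 or more and Ager at 14.38 or more. The macrophage marker Adgre1 lay between 7.11 and 8.05, and the alveolar macrophage marker Siglecf between 6.18 and 8.5. These 2 arrays stood apart. Array 1 of the sham 0 h group had Alb at 14.02, against at most 11.35 elsewhere, and Xist, the RNA of the inactive X chromosome of female cells, at 11.94, against at most 6.02. Array 3 of the SPIO 24 h group had a mean of 3 Y-linked genes of 5.6, with Xist low as on all arrays but sham 0 h array 1. The Y-linked mean was 6.77 or more on every other array, sham 0 h array 1 included. Both were kept, and the counts of called members and each called difference of a member were computed again without them, whereas correlations, marker and pathway lists and overlaps of groups were not. Their removal ended the calls of Ctsd at 24 h (0.24, adjusted p = 0.061), of Marco over the mean of 6 times (0.26, adjusted p = 0.068) and of Gpnmb in the SPIO 24 h group against the other SPIO groups (0.48, adjusted p = 0.057).

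Members that were higher in SPIO nanoparticle exposed mice were most numerous at 24 and 48 h. Gpnmb was higher than in time-matched sham controls at 6, 24, 48 and 96 h, Ctsk and Ctsd were higher at 24 and 48 h, Msr1, Cd68 and Ctsb at 24 h, and Marco at 48 h. Mrc1, Lyz2 and Ctsl passed the test at no time, and no member was lower at any time. A call means an adjusted p under 0.05 in limma, with 1 fit over all 12 groups and Benjamini-Hochberg adjustment over the 18193 genes.

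At 0 h 0 members were called by limma and 0 by the methods' test (unequal variances with Tukey's HSD), 1 had an unadjusted p under 0.05, and 2.56% of all genes were higher and 1.11% lower. At 6 h 1 of 10 members was higher, beside 0.759% of all genes higher and 0.407% lower. At 24 h 6 of 10 members were higher, whereas 20.3% of all genes were higher and 3.66% lower. At 48 h 4 of 10 were higher, whereas 10.7% of all genes were higher and 1.89% lower. The median difference of the members was 0.35 at 24 h and 0.32 at 48 h, and that of all genes was 0.09 and 0.04. At 96 h the share of members called was again 1 of 10, with 0.522% of all genes higher and 0.885% lower. By 168 h 0 members were called by limma and 0 by the methods' test, 1 had an unadjusted p under 0.05, and 0.566% of all genes were higher and 1.62% lower.

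**Figure D1:**
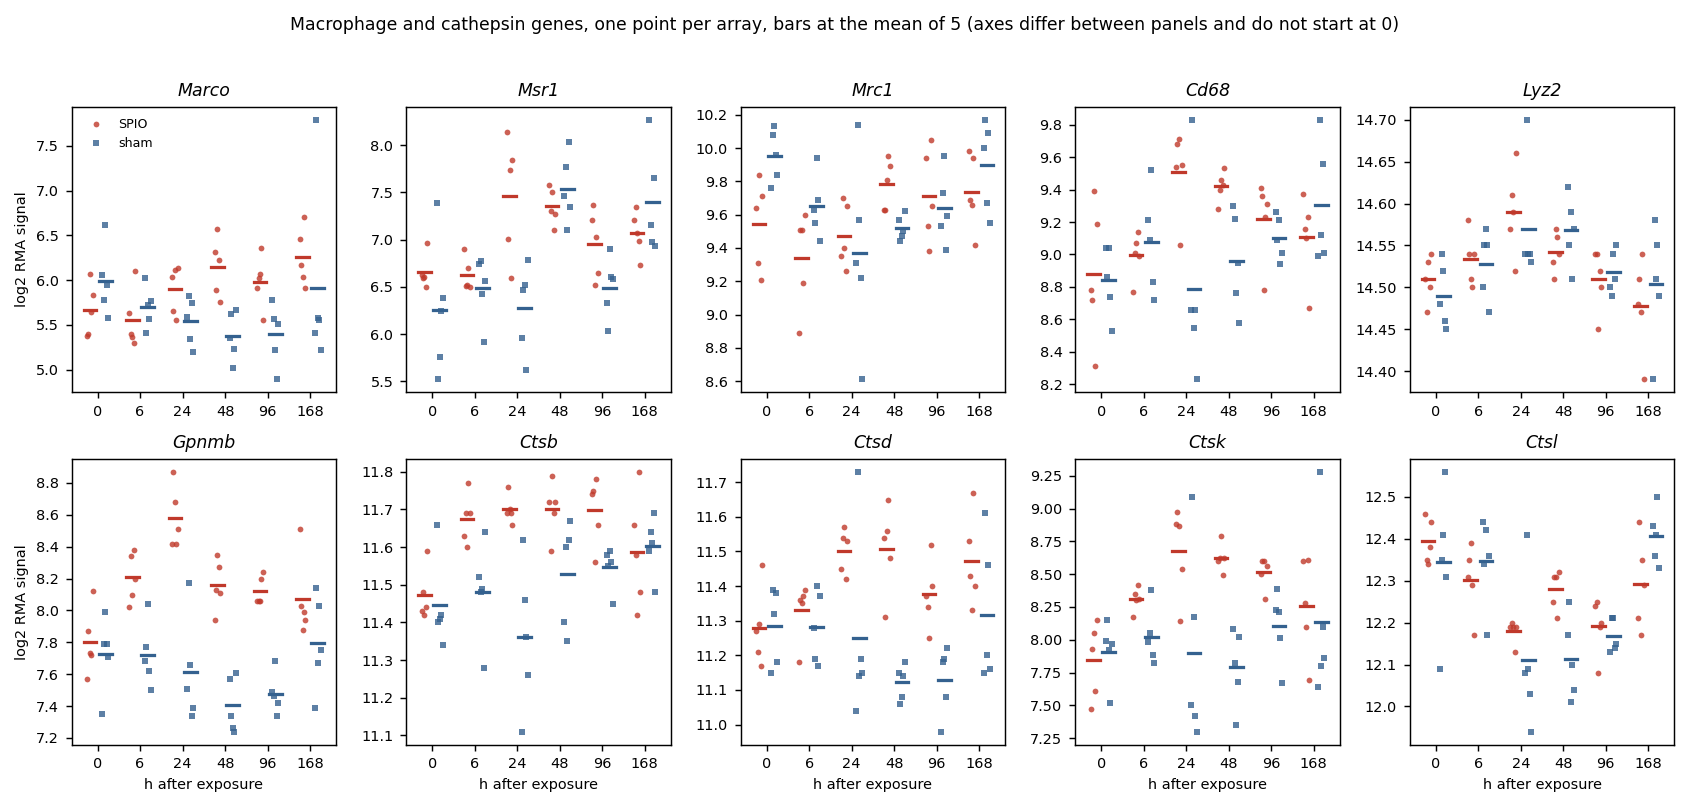
Log2 RMA signal (y axis) against hours after exposure (x axis) for the 10 genes, with 1 point per mouse, SPIO at the left and sham at the right of each time, and a bar at the mean of 5. The SPIO arrays of Gpnmb lay above all sham arrays at 24, 48 and 96 h, whereas the Lyz2 axis spans only 14.39 to 14.7.

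**Figure D2:**
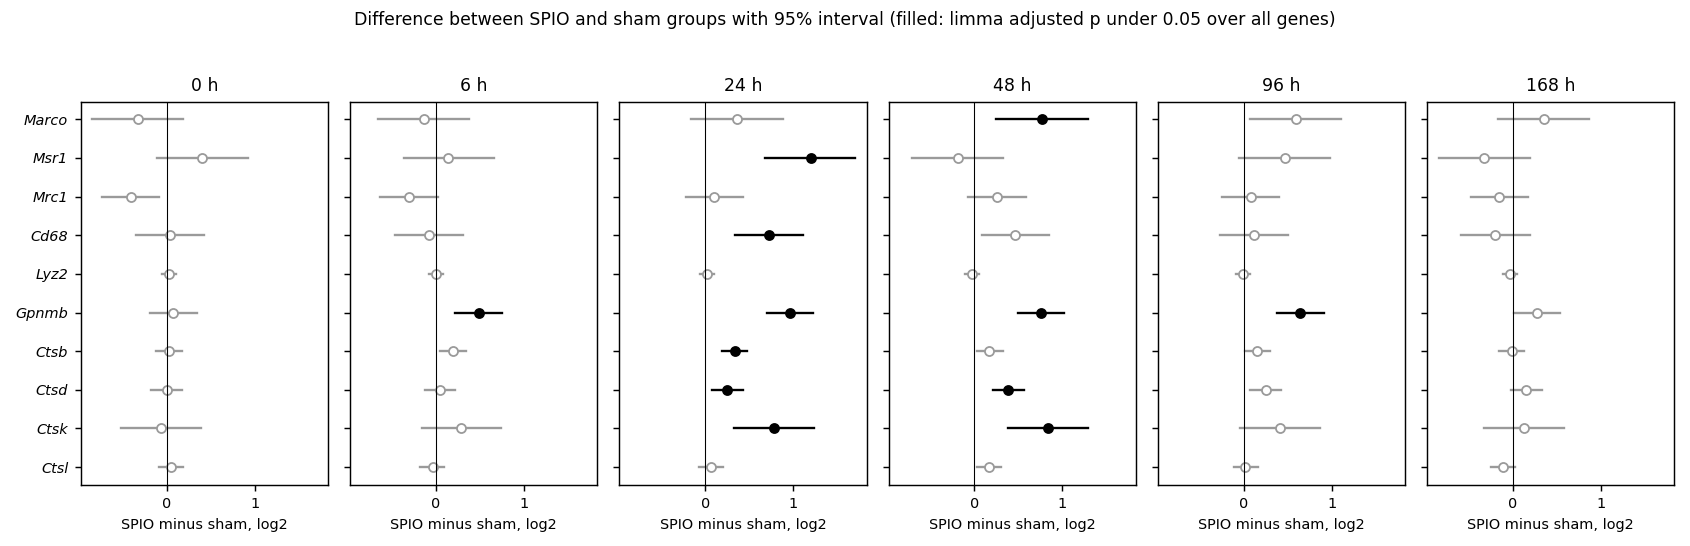
Difference of SPIO and sham group means on the log2 scale (x axis) with its 95% interval for each gene (y axis) at each of 6 times. Filled points passed the limma test, 6 of them at 24 h and 4 at 48 h, and all filled points lie to the right of 0.

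Before the values of single genes, the upstream sequences of Ctsd, Ctsk and Gpnmb are given, because these were the 3 members called at both 24 and 48 h. They come from RefSeq (GRCm38.p6) and cover the 250 bases before the transcript start. Capitals mark matches to the E-box CACGTG, which MITF and TFE family factors of lysosomal genes can bind, or to GAGGAA, the core bound by the macrophage factor PU.1, on either strand. The M-box TCATGTG was searched too, and the motif letters do not overlap one another in these windows. Ctsd lies at chr7:142387828-142388077 on the minus strand, Ctsk at chr3:95498960-95499209 on the plus strand and Gpnmb at chr6:49036268-49036517 on the plus strand.
Ctsd: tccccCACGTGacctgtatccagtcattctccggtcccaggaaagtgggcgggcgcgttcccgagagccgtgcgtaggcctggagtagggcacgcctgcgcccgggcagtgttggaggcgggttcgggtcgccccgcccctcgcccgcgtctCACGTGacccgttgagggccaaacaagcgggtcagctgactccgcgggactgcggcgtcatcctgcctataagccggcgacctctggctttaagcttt
Ctsk: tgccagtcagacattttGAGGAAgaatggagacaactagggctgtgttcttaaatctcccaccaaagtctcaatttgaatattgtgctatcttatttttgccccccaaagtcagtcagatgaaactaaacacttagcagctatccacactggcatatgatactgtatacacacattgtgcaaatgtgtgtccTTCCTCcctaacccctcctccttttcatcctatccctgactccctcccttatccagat
Gpnmb: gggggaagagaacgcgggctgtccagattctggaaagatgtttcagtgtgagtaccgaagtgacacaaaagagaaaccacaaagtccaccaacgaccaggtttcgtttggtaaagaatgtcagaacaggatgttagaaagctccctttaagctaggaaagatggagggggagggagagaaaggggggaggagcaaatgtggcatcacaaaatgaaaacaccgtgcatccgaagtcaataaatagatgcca
The Ctsd window held the E-box at 245 and 98 bases before the start, the Ctsk window held the PU.1 core at 233 and 58 bases before it, and the Gpnmb window held no match to the 3 motifs. Windows of 8 of the 10 members were in the table, each of 300 bases that included 50 after the start. The E-box was in 2 of these 8, Ctsd and Ctsl, and in 7.15% of 32851 windows of this length. The Ctsl window lies within the annotated gene, so it is not shown. The PU.1 core was in 4 of 8 (Marco, Mrc1, Cd68 and Ctsk) and in 28.3% of all windows, and the M-box was in none of the 8 and in 3.77% of all. A match is only a run of letters, and binding was not measured.

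Among the surface receptors, Msr1 (class A scavenger receptor, which takes up modified lipoproteins and particles) had the largest difference of any member, at 24 h. Its 5 SPIO arrays read 8.14, 7.01, 7.74, 6.59 and 7.84, against 5.96, 6.47, 6.52, 5.62 and 6.79 in sham controls. Every SPIO array was above the sham median, but the ranges overlapped, since SPIO array 4 lay below sham array 5. The difference was 1.2 (SE 0.26), a fold change of 2.29, with a limma adjusted p of 0.00065, and it was called without each of the 10 arrays in turn. The 3 other probe sets of Msr1 were called at 24 h as well, by 0.72, 0.47 and 0.88.

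Msr1 also differed between the groups of sham controls. The sham 24 h group averaged 6.27, against 6.83 over the other sham groups (difference -0.56, adjusted p = 0.028). At 48 h Msr1 read 7.58, 7.3, 7.51, 7.1 and 7.27 in SPIO nanoparticle exposed mice and 7.46, 7.77, 7.1, 8.03 and 7.35 in sham controls, and the groups overlapped widely. Sham controls at 48 h were higher than the other sham groups by 0.96 (adjusted p = 0.0035) and those at 168 h by 0.79 (adjusted p = 0.013). The SPIO groups of Msr1 ran between means of 6.63 at 6 h and 7.46 at 24 h, and no SPIO group passed the test against the others.

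Over all members, 4 were lower in the sham 24 h group than in the other sham groups, namely Msr1, Mrc1 (-0.36), Ctsb (-0.16) and Ctsl (-0.17), while 21.3% of all genes were lower in that comparison. Leaving out sham 24 h array 1 or 4 ended the call of Msr1 (adjusted p = 0.093 and 0.16), arrays 1, 4 or 5 those of Mrc1 and Ctsb (up to 0.36 and 0.23), and arrays 4 or 5 that of Ctsl (up to 0.12). After repeated quantile normalisation none of the 4 passed (adjusted p from 0.073 to 0.16). In the sham 48 h group Msr1 was the 1 member that was higher, beside 1.3% of all genes. In the sham 168 h group Msr1 and Ctsl (0.19) were higher, beside 4.63% of all genes. The Msr1 call at 168 h was lost without array 1 (0.57, adjusted p = 0.093) or array 4 (0.73, adjusted p = 0.11), and that of Ctsl without any of arrays 1 to 4 (adjusted p from 0.053 to 0.18). Each SPIO minus sham difference at 24 h uses the same 5 sham arrays.

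Marco (macrophage receptor with collagenous structure, which binds bare particles and bacteria on alveolar macrophages) was higher at 48 h. The SPIO arrays read 6.31, 5.89, 6.57, 6.22 and 5.75 and the sham arrays 5.35, 5.62, 5.02, 5.23 and 5.67. The groups did not overlap, although the lowest SPIO array was only just above the highest sham array. The difference was 0.77 (SE 0.26, adjusted p = 0.039), and 6 of the 10 removals of a single array ended the call, with adjusted p-values up to 0.12. Removals of arrays 1, 3 and 4 of either group were the 6, and the difference did not pass the methods' test. The other Marco probe set (mean signal 4.57) differed by -0.05 at 48 h.

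At 96 h Marco differed by 0.59 (adjusted p = 0.27) and at 168 h by 0.35 (adjusted p = 0.52), with each of the 5 SPIO arrays above the sham median at both times. At 168 h Marco read 6.46, 6.17, 6.03, 6.7 and 5.91 in SPIO nanoparticle exposed mice, against 5.41, 7.79, 5.58, 5.55 and 5.22 in sham controls, where array 2 was the highest of the 10. Without sham array 2 the 168 h difference was 0.82 (SE 0.19, adjusted p = 0.02). The same sham array had the highest signal of all 60 for Cd68, Mrc1 and Ctsk, and for the alveolar macrophage markers Siglecf (8.5) and Chil3 (12.82), and its part in the Marco result was not tested further.

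Mrc1, the mannose receptor, passed the test at no time. At 0 h the SPIO arrays lay between 9.21 and 9.84 with a median of 9.64, and the sham arrays between 9.76 and 10.13 with a median of 9.96. All 5 SPIO arrays were below the sham median, and the difference of -0.41 (SE 0.16) had an adjusted p of 0.15. At 48 h the order was turned, with 9.63 to 9.95 in SPIO nanoparticle exposed mice and 9.44 to 9.62 in sham controls, which did not overlap, yet the difference of 0.26 had an adjusted p of 0.31. Over the mean of 6 times Mrc1 differed by -0.07 (95% interval -0.21 to 0.06).

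Cd68 (macrosialin, a glycoprotein of macrophage endosomes and lysosomes) was higher at 24 h. The SPIO arrays read 9.54, 9.68, 9.71, 9.06 and 9.55, and the sham arrays 8.66, 9.83, 8.55, 8.66 and 8.23. Apart from sham array 2, every sham array was below every SPIO array. The difference was 0.73 (SE 0.19, adjusted p = 0.0045), and 0.99 (adjusted p = 5.4e-05) without sham array 2. Over the 10 removals of a single array it ran from 0.59 to 0.99, with adjusted p-values up to 0.031. When the 24 h arrays were fitted alone the adjusted p was 0.068. At 48 h Cd68 differed by 0.46 (adjusted p = 0.11), with 5 SPIO arrays above the sham median.

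Lyz2, which encodes the bacterial wall enzyme lysozyme of macrophages and other cells, hardly varied in whole lobe RNA. Which lung cells gave this signal was not tested. Its signal stayed between 14.39 and 14.7 on all 60 arrays. The SPIO and sham means differed by at most 0.03 in size at any time, and the interval over the mean of 6 times was -0.04 to 0.03. The within-group SD of Lyz2 was 0.05, against a median of 0.18 over all genes, and how far such high signals can still rise on this array was not tested.

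Gpnmb, a transmembrane glycoprotein of late phagosomes and lysosomes that is also found on macrophages loaded with lipid or undigested material, was the member called at the most times. At 24 h its SPIO arrays read 8.42, 8.87, 8.68, 8.42 and 8.51, and the sham arrays 7.51, 8.17, 7.66, 7.34 and 7.39. The lowest SPIO array was above the highest sham array. This gave a difference of 0.96 (SE 0.13), a fold change of 1.95, with an adjusted p of 1.7e-06.

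At 48 h Gpnmb read 7.94, 8.13, 8.35, 8.27 and 8.11 in SPIO nanoparticle exposed mice and 7.57, 7.34, 7.26, 7.24 and 7.61 in sham controls, a difference of 0.76 (SE 0.13, adjusted p = 0.00015). At 96 h it read 8.06, 8.06, 8.06, 8.2 and 8.24 after SPIO and 7.49, 7.46, 7.68, 7.34 and 7.42 after sham exposure, a difference of 0.64 (SE 0.13, adjusted p = 0.0038). The groups were apart at both times, and removing any 1 of their 10 arrays left each call in place. By 168 h the SPIO arrays read 8.51, 8.03, 7.88, 7.99 and 7.94, overlapping sham values of 7.39, 8.14, 7.67, 8.03 and 7.75. That difference was 0.27 (SE 0.13, unadjusted p = 0.046, adjusted p = 0.29).

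The earliest call of Gpnmb, at 6 h, was close to the threshold. The SPIO arrays read 8.02, 8.34, 8.1, 8.38 and 8.2, and the sham arrays 7.68, 7.77, 8.04, 7.62 and 7.5, so that only sham array 3 reached into the SPIO range. The difference was 0.49 (SE 0.13, adjusted p = 0.048), and 8 of 10 removals of a single array ended the call, with adjusted p-values from 0.06 to 0.15. The exceptions were SPIO array 1 and sham array 3. The call was also lost after repeated quantile normalisation (adjusted p = 0.06), after median centring (0.055) and with the 6 h arrays fitted alone (0.076). At 0 h the difference was 0.07 (95% interval -0.19 to 0.34).

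Gpnmb was 1 of 7 genes among 18193 (0.0385%) that were called higher at each of 6, 24, 48 and 96 h. This set of times was taken from the calls of Gpnmb itself, and the 6 h call was close to the threshold. At 4 or more of the 6 times, 29 genes (0.159%) were called higher. The effect on Gpnmb at 24 h exceeded that at 0 h by 0.89 (SE 0.19, adjusted p = 0.015), a difference of effects that 1.18% of all genes had in either direction. It was the 1 member call among 9 such comparisons between times. The effects of Ctsk at 24 and 0 h differed by 0.85 (adjusted p = 0.14) and those of Msr1 by 0.79 (adjusted p = 0.21), with larger standard errors. Without sham 24 h array 2 the count rose to 9, with Mrc1, Cd68, Gpnmb, Ctsb, Ctsd and Ctsk for 24 h against 0 h, Cd68 and Gpnmb for 24 h against 6 h, and Gpnmb for 48 h against 0 h.

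Within the SPIO arm Gpnmb was lower in the 0 h group than in the later SPIO groups (7.8 against 8.23, difference -0.43, adjusted p = 0.011). Ctsb (-0.2) and Ctsk (-0.63) were lower there too, and 1.91% of all genes were. The Ctsb call was lost on removing 4 of the 5 SPIO 0 h arrays (1 to 4) in turn, that of Ctsk on removing array 1, 2 or 4, and that of Gpnmb without array 1 (-0.37, adjusted p = 0.09). In the SPIO 24 h group Gpnmb was higher than in the other SPIO groups by 0.51 (8.58 against 8.07, adjusted p = 0.014), while 0.0824% of all genes were higher. Without SPIO 24 h array 2 this was 0.43 (adjusted p = 0.11), and without array 3 it was 0.48 (adjusted p = 0.075).

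Of the cathepsins, Ctsk (cathepsin K, a cysteine protease that cleaves collagen and is best known from osteoclasts) had the largest differences. At 24 h its SPIO arrays read 8.88, 8.97, 8.87, 8.14 and 8.54, and the sham arrays 7.5, 9.09, 8.17, 7.42 and 7.3. Sham array 2 had the highest value of the 10, and the difference was 0.78 (SE 0.23, adjusted p = 0.0087), or 1.08 (adjusted p = 0.00015) without that array. Over the 10 removals of a single array it ran from 0.64 to 1.08, with adjusted p-values up to 0.04955. Fitted on the 24 h arrays alone it did not pass (adjusted p = 0.099), and it did not pass the methods' test.

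At 48 h Ctsk read 8.6, 8.62, 8.79, 8.49 and 8.62 in SPIO nanoparticle exposed mice and 8.08, 7.82, 7.35, 7.68 and 8.02 in sham controls. The groups did not overlap, and the difference was 0.84 (SE 0.23), a fold change of 1.78, with an adjusted p of 0.01. At 6, 96 and 168 h the differences were 0.29, 0.41 and 0.12, none called, with all 5 SPIO arrays above the sham median at 6 and at 96 h.

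Ctsd (cathepsin D, the main aspartic protease of lysosomes) differed by less but with a smaller spread. At 48 h its SPIO arrays read 11.54, 11.31, 11.56, 11.65 and 11.48, and the sham arrays 11.15, 11.06, 11.08, 11.14 and 11.18. The groups were apart, with a difference of 0.38 (SE 0.09, adjusted p = 0.0024), a fold change of 1.31.

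For Ctsd at 24 h the SPIO arrays read 11.45, 11.54, 11.57, 11.42 and 11.53 and the sham arrays 11.04, 11.73, 11.14, 11.19 and 11.15. Sham array 2 was above all SPIO arrays, and the 4 others were below them. The difference of 0.25 (SE 0.09, adjusted p = 0.027) was lost without any of sham arrays 1, 3, 4 and 5 or SPIO arrays 2 and 3, with adjusted p-values from 0.058 to 0.097, and was 0.37 (adjusted p = 0.0004) without sham array 2. With the 24 h arrays fitted alone the adjusted p was 0.16 and after repeated quantile normalisation it was 0.057, and the methods' test did not call it. At 96 h Ctsd read 11.25 to 11.52 after SPIO and 10.98 to 11.22 after sham exposure, which did not overlap, and the difference of 0.25 had an adjusted p of 0.15.

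Ctsb (cathepsin B, a cysteine protease with both endo- and exopeptidase activity) was called at 24 h, where the SPIO arrays read 11.69, 11.76, 11.7, 11.69 and 11.66 and the sham arrays 11.11, 11.62, 11.46, 11.36 and 11.26. The SPIO arrays lay closely together above all sham arrays, and the difference was 0.34 (SE 0.07, adjusted p = 6e-04), a fold change of 1.27. At 6, 48 and 96 h the differences were 0.19, 0.17 and 0.15, with adjusted p-values of 0.2, 0.11 and 0.32. The 24 h call depended on the probe set: the mean of the 5 Ctsb probe sets differed by 0.11 (adjusted p = 0.29).

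Ctsl (cathepsin L, a cysteine protease close to Ctsk in family) passed the test at no time. The largest difference, 0.17 at 48 h (SE 0.07, adjusted p = 0.093), came from 12.21 to 12.32 in SPIO nanoparticle exposed mice and 12.01 to 12.25 in sham controls. Over the mean of 6 times Ctsl differed by 0.02 (95% interval -0.03 to 0.08). Its group means were 12.39 at 0 h and 12.18 at 24 h after SPIO, and 12.35 and 12.11 after sham exposure.

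Groups that did not overlap, with all 5 SPIO arrays above all 5 sham arrays, were found for Gpnmb and Ctsb at 24 h, where 9.96% of all genes had this pattern. At 48 h Marco, Mrc1, Gpnmb, Ctsd and Ctsk had it, and 6.61% of all genes. At 96 h Gpnmb and Ctsd had it, and 2.67% of all genes.

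Over the mean of the 6 times, 6 of 10 members were higher, whereas 24.1% of all genes were higher and 6.17% lower. Gpnmb differed by 0.53 (SE 0.05, adjusted p = 6.2e-11), Ctsk by 0.4, Ctsd by 0.18, Ctsb by 0.15, Msr1 by 0.28 and Marco by 0.27. Without the 24 h groups Gpnmb (0.45), Ctsk (0.32), Ctsd (0.17) and Ctsb (0.11) were called, and Msr1 (0.1, adjusted p = 0.59) and Marco (0.25, adjusted p = 0.13) were not. Marco passed at an adjusted p of 0.0499 and was lost in 39 of 60 removals of a single array (up to 0.079). Msr1 was lost in 12 of 60 (up to 0.059). With the probe sets of a gene averaged, Ctsb over the mean of 6 times was 0.02 (adjusted p = 0.74), Msr1 0.15 (adjusted p = 0.09) and Marco 0.08 (adjusted p = 0.49), and repeated quantile normalisation also ended the calls of Msr1 (0.21, adjusted p = 0.15) and Marco (0.2, adjusted p = 0.18).

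The probe sets of a gene did not all read alike. All 4 of Msr1 were called at 24 h, and their deviations from group means correlated with the main one at 0.6 to 0.83. The second probe set of Gpnmb had a mean signal of only 3.28 and differed by 0.22 at 24 h and 0.25 at 48 h, with no call. Of the 4 other Ctsb probe sets, 3 had deviations that correlated with the main one at 0.46 to 0.74, and they were never called. The set with the correlation of 0.74 (mean signal 9.69) differed by 0.06 at 24 h and -0.04 at 48 h. The 2 others differed by 0.26 and 0.3 at 24 h. The remaining Ctsb set had a mean signal of 5.06, a correlation of -0.14, and lower values in SPIO nanoparticle exposed mice at 24 h (-0.38, adjusted p = 0.029) and 168 h (-0.44, adjusted p = 0.031). These p-values were adjusted over all probe sets other than controls, and on that count Marco at 48 h had an adjusted p of 0.055.

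**Figure D3:**
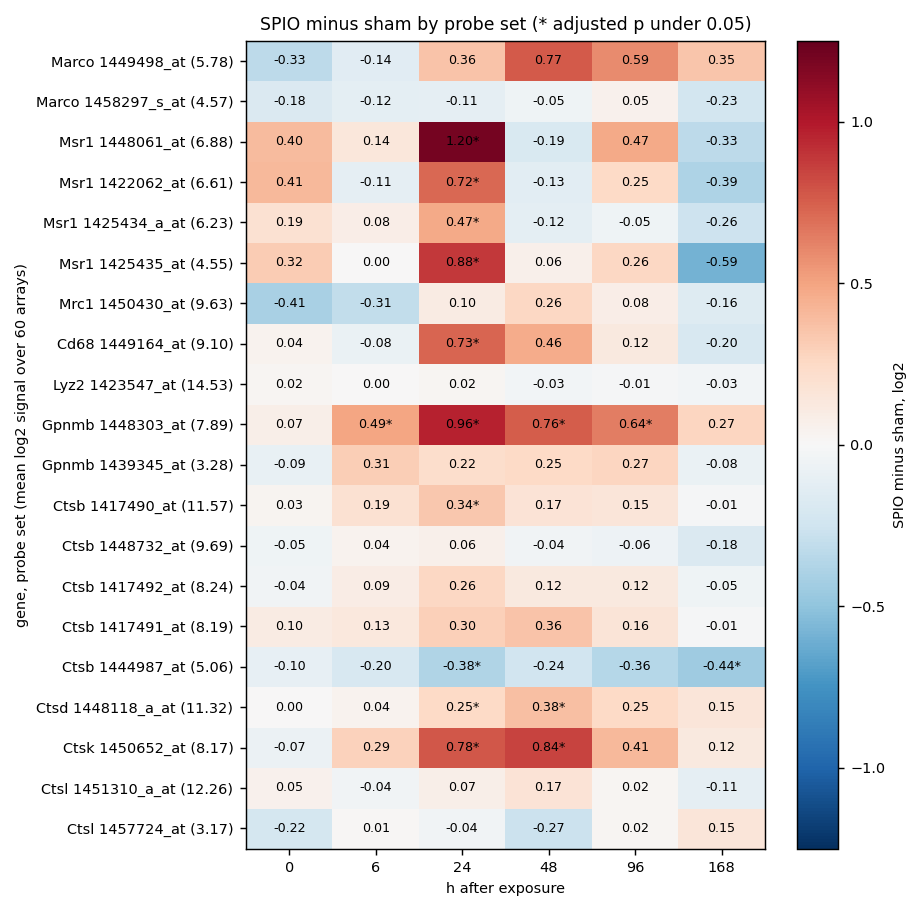
SPIO minus sham difference on the log2 scale (colour and printed value) for the 20 probe sets of the 10 genes (y axis, with the mean log2 signal over 60 arrays) at 6 times (x axis, hours). Stars mark adjusted p-values under 0.05 over all probe sets other than controls. The 4 Msr1 sets carry one at 24 h, and the lowest Ctsb set is negative at all 6 times.

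How the members varied from mouse to mouse was described by the correlation of their deviations from group means over the 60 arrays. These arrays share tissue, platform and normalisation, so the values are descriptive. Of 45 pairs 40 were positive, with a median r of 0.43, and Cd68 with Ctsk had the highest value of 0.74. Mrc1, Cd68, Lyz2, Gpnmb, Ctsd and Ctsk correlated with one another at 0.54 to 0.74. For all of these genes, array 2 of the sham 24 h group and array 2 of the sham 168 h group were the highest of their groups. Correlations were not computed again without those arrays. Msr1 had lower values with the other members, between -0.16 (Gpnmb) and 0.39 (Ctsb).

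**Figure D4:**
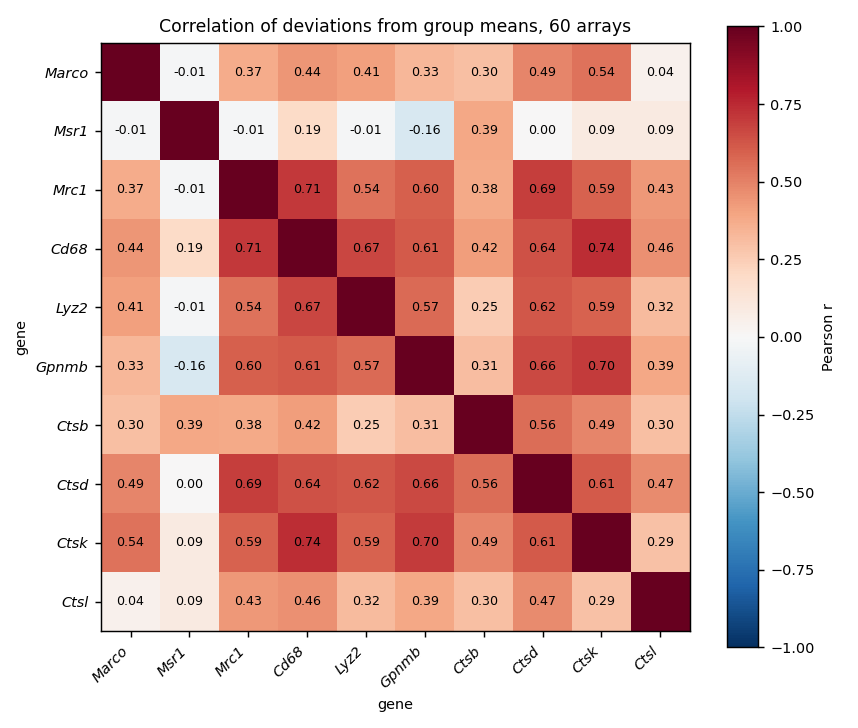
Pearson correlation (colour and printed value) of each pair of the 10 genes after subtracting group means, over 60 arrays, with the genes on both axes. The Msr1 row runs from -0.16 with Gpnmb to 0.39 with Ctsb, whereas Cd68, Gpnmb, Ctsd and Ctsk correlate at 0.61 to 0.74.

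The genes outside the list that varied most like each member were found by the same correlation. Group means were subtracted first, so these values do not describe SPIO minus sham differences. For Msr1 these were Ms4a6d (r = 0.87) and the monocyte marker F13a1 (0.83). For Mrc1 they were F7 (0.85) and Atp6v0d2 (0.81), for Cd68 Capg (0.89) and Slc15a3 (0.85), and for Lyz2 Ctsz (0.77) and Clec4n (0.76). For Gpnmb they were Atp6v0d2 and the scavenger receptor Olr1 (0.73 each). Ctsk was most like Clec4n and the saposin precursor Psap (0.78 each), Ctsd like Plet1 and Lrp12 (0.8 each), Ctsb like Mrpl34 (0.72) and Ldha (0.71), and Ctsl like the cathepsin Ctsf (0.71) and Rgs4 (0.69). Marco had the weakest such neighbours, the immunoglobulin gene Igkv15-103 (0.67) and Clec4n (0.57).

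Markers of other cells are set beside the 24 h and 48 h results, at which times 20.3% and 10.7% of all genes were higher and the median difference of all genes was 0.09 and 0.04. All 6 measured monocyte markers were higher at 24 h (median difference 1.47), F13a1 among them by 1.65 (SE 0.34, adjusted p = 0.00037). The log2 of their summed signal lay between 11.7 and 12.79 in SPIO 24 h arrays and between 10.23 and 12.1 in sham 24 h arrays. At 48 h 0 of the 6 were called by limma and 1 had an unadjusted p under 0.05 (median 0.09), and the sums were 12.24 to 12.75 after SPIO and 11.72 to 12.76 after sham exposure, the time at which Msr1 averaged 7.35 after SPIO and 7.54 after sham exposure. Of 8 measured alveolar macrophage markers 2 were higher at 24 h (Krt79 by 1.21 and Slc39a2 by 0.86) and 2 at 48 h (Itgax by 0.45 and Slc39a2 by 0.8), with list medians of 0.15 and 0.3. Others of this list had differences below 0 without a call, Fabp1 of -0.86 at 24 h (adjusted p = 0.12) and -0.87 at 48 h (adjusted p = 0.16), and Chil3 of -0.29 at 24 h (adjusted p = 0.17) but 0.25 at 48 h (adjusted p = 0.29). The summed signal of the 8 markers lay between 12.9 and 13.44 at 24 h after SPIO and between 13.01 and 13.71 after sham exposure. At 48 h it lay between 13.2 and 13.42 against 13.04 and 13.3. Such sums are weighted to the strongest markers, here Chil3 and Car4, with means of 11.93 and 11.44 in the SPIO 24 h group. Siglecf differed by 0.02 at 24 h and 0.07 at 48 h. Of 9 interstitial macrophage markers 1 was higher at each of these times (C1qc by 0.48 at 24 h, Cd163 by 0.82 at 48 h). Of 9 neutrophil markers 1 was higher at each time, with list medians of 0.53 and 0.84. In limma 3 of these 9 had an unadjusted p under 0.05 at 24 h and 6 at 48 h. The neutrophil sums were 13.04 to 15.17 after SPIO and 11.71 to 14.51 after sham exposure at 24 h. At 48 h they were 14.56 to 15.06 and 13.35 to 14.77. Of 5 markers of all macrophages 1 was higher at 24 h (Csf1r by 0.28). At 48 h 0 of these 5 were called, and 1 had an unadjusted p under 0.05. Among lists of other cells, 2 of 4 endothelial markers were higher at 24 h, and at most 1 marker in either direction was called at 24 or 48 h for dendritic cells, alveolar type 1 and type 2 cells and fibroblasts. Airway secretory cells (3 markers), hepatocytes (6) and cardiac muscle (5) had 0 calls by limma at both times, with 1 unadjusted p under 0.05 at 48 h, for a hepatocyte marker. The part of these cells in the members' results was not tested.

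Other receptors and proteases of the same pathways were read from lists, whose counts stand against the 20.3% of all genes higher and 3.66% lower at 24 h and the 10.7% higher and 1.89% lower at 48 h. Of 18 further scavenger and uptake receptors 4 were higher and 1 lower at 24 h, and 3 were higher and 1 lower at 48 h (medians 0.19 and 0.12), of which the share higher at 24 h was close to that of all genes. Lrp1, the large lipoprotein receptor, was higher at 48 h by 0.54 (SE 0.14, adjusted p = 0.0058), and Axl, a receptor for apoptotic cells, by 0.49 (adjusted p = 0.007). At 24 h Scarb2, which carries glucocerebrosidase to lysosomes, was higher by 0.18 (adjusted p = 0.041). Colec12, a scavenger receptor of endothelial cells, was lower at 24 h (-0.71, SE 0.18, adjusted p = 0.0029).

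Of 13 other cathepsins and lysosomal proteases 6 were higher at 24 h (median 0.28), beside 20.3% of all genes, and at 48 h 0 were called by limma and 3 had an unadjusted p under 0.05. Ctsa, a carboxypeptidase of lysosomes, differed at 24 h by 0.38 (adjusted p = 0.0043), and the aspartic protease Ctse by 0.71 (adjusted p = 0.0055). Ctsw, a cathepsin of cytotoxic lymphocytes, was higher at 0 h by 0.6 (adjusted p = 0.021). Of 6 measured cathepsin inhibitors of the cystatin and stefin families 0 were called at any single time by limma, and 7 of 36 differences had an unadjusted p under 0.05. At 24 h Cst7 differed by 0.37 (adjusted p = 0.057).

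Of 12 measured lipid and lysosome genes of loaded macrophages, 1 was higher at 6 h (the fatty acid carrier Fabp5 by 0.59, adjusted p = 0.016), 4 at 24 h and 2 at 48 h, beside 0.759%, 20.3% and 10.7% of all genes. Lpl, which encodes lipoprotein lipase, was higher by 0.48 at 24 h (adjusted p = 0.0031) and by 0.49 at 48 h (adjusted p = 0.005). Lgals3, encoding the lectin galectin-3, was higher at 24 h by 0.56 (adjusted p = 0.0072), and the lipid-sensing receptor Trem2 at 48 h by 0.38 (adjusted p = 0.0496).

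Of 14 measured regulators 4 were higher and 1 lower at 24 h, and 2 higher and 2 lower at 48 h, and their medians of 0.07 and 0.18 stood beside 0.09 and 0.04 over all genes. The shares higher, beside 20.3% and 10.7% of all genes, were not far from the background. Spi1, which encodes PU.1, was higher at 24 h by 0.63 (SE 0.14, adjusted p = 0.00095), and the lysosomal gene regulator Tfe3 by 0.31 (adjusted p = 0.0087). Csf1, the growth factor of macrophages, was lower at 48 h (-0.5, adjusted p = 0.0018), at 96 h (-0.48, adjusted p = 0.012) and at 168 h (-0.39, adjusted p = 0.042). Bhlhe40, a transcriptional repressor, was lower at 48 h (-0.5, adjusted p = 0.0048).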

How the data were processed

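Lung RNA from the right diaphragmatic lobe was read on 60 Affymetrix mouse genome arrays, each from a different Balb/c mouse labelled male. A sex-linked signal of each of 2 arrays went against that label. The deposited values are log2 signals from the authors' RMA, which corrects background, quantile normalises the arrays and summarises the probes of a probe set. Its version: not given in the sources used here. Columns were assigned to mice through their titles, with 0 left over. Precision is limited by having 5 arrays per group. Of 45101 probe sets, 64 controls were left out; 34945 had 1 gene symbol in the platform annotation, 932 several and 9160 had no symbol. Each of the 18193 genes was read from its probe set of highest mean.

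Time-matched comparisons of SPIO with sham mice used limma 3.58.1 in R 4.3.3. A single linear model held the 12 groups (48 residual degrees of freedom), variances were moderated, and p-values were adjusted by Benjamini-Hochberg across the 18193 genes. The threshold was an adjusted p of 0.05, and no fold minimum was set. Effects at different times, and 1 group against the 5 others of its arm, were contrasts of the same fit. The labels number the mice as biological replicates. Of 30 same-numbered SPIO and sham pairs checked for pairing, 7 correlated above 0.1 (median -0.0445), and the main fit used no pairing. Differently numbered pairs were not compared, so the check cannot exclude that the numbers paired some mice.

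The members, the lists and the tests were chosen with earlier results of these data known. Named from each of 5 pathway lists were the 2 called genes with the smallest p at each time, and for each member the 2 genes outside the list most correlated with it. The genes named from the cell type marker lists, Cst7 and the array values set beside a result were chosen after their values were seen. Symbols are those of the platform annotation, and promoter windows were matched by symbol. Alternatives were averaging the probe sets of a gene, testing every probe set, a filter at a log2 value of 6 in 5 arrays, repeated quantile normalisation, median centring, separate fits of each time, a variance trend with robust moderation, weighting of arrays, the replicate number as a block, the methods' test (unequal variances with Tukey's HSD), a fold minimum of 1.5, the mean without 24 h and leaving out each array. Leaving out both arrays that stood apart was chosen after seeing the data. The scripts were tested on simulated data. Plots were made in matplotlib 3.10.9.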

Additional observations from a re-analysis of the deposited data

Results flagged for a closer look

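For the 10 members in the 12 groups of 5 mice, 12 of the 120 sets of 5 values had 1 end value far from the other 4 by Dixon's 95% criterion, which chance alone gives in about 1 of 20 groups. Array 2 of the sham 24 h group was high for Cd68 (9.83, the others 8.23 to 8.66), Lyz2 (14.7, the others 14.53 to 14.54) and Ctsd (11.73, the others 11.04 to 11.19). Array 2 of the sham 168 h group was high for Marco (7.79, the others 5.22 to 5.58) and Ctsk (9.28, the others 7.64 to 8.1). Array 4 of the SPIO 24 h group was low for Cd68 (9.06, the others 9.54 to 9.71) and Ctsl (12.13, the others 12.19 to 12.2). Single values apart were Msr1 in SPIO 0 h array 5 (6.97), Cd68 in SPIO 96 h array 3 (8.78), Gpnmb in SPIO 168 h array 1 (8.51), Ctsb in sham 0 h array 1 (11.66) and Ctsd in SPIO 6 h array 1 (11.18).

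The difference of Gpnmb between SPIO nanoparticle exposed mice and sham controls was larger at 24 h than at 0 h by 0.89 (SE 0.19, limma adjusted p = 0.015).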

How the results depend on the processing

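None of the tested results reversed. Of 312 single gene differences under alternatives other than leaving out 1 array, 264 kept their side of the threshold and 48 lost the call. Of 555 with 1 array left out, 458 kept it and 97 lost it. With the probe sets of each gene averaged, 3 members were called over the mean of 6 times, 0 effects differed between times and 1 member differed in a SPIO group. Quantile normalisation again gave 0 calls at 6 h, 0 effects that differed between times and 2 sham group differences. The 6 h count was also 0 with median-centred arrays, with the time fitted alone and with a fold minimum of 1.5. Fitting 24 h alone left 3 calls. Counts are listed in this paragraph only where they changed by more than a factor of 1.5, and smaller losses occurred too. The methods' test did not keep the calls of Ctsd and Ctsk at 24 h and of Marco at 48 h. The fold minimum ended those of Ctsb and Ctsd at 24 h and of Ctsd at 48 h. Array weights gave 2 calls at 96 h, 6 effects that differed between times and 15 sham group differences. The filter, which kept 11899 genes and all 10 members, gave 2 effects that differed between times, as did leaving out both arrays that stood apart. The cause of these changes was not tested.

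With 1 array left out in turn, the counts ran from 0 to 1 at 6 h, 5 to 6 at 24 h, 3 to 5 at 48 h and 0 to 1 at 168 h, where Marco was called without sham array 2. They stayed at 0 at 0 h and at 1 at 96 h. Over the mean of 6 times they ran from 4 to 7, for effects that differed between times from 1 to 9, for sham group differences from 4 to 10 (7 with all arrays) and for SPIO group differences from 1 to 4 (4 with all arrays). A fit with the replicate number as a block left the member counts at each time unchanged, and Marco over the mean of 6 times lost its call (adjusted p = 0.056). Over all genes the block gave 4326 calls at 24 h, against 4356 without it.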
